A study of Mus musculus with 16 samples.

Results

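The genes described here are 4 granzymes (Gzmb, Gzma, Gzmk and Gzmm), the pore-forming protein perforin (Prf1), the granzyme B inhibitor Serpinb9, the signalling adaptor Lat and the lectin-like receptor Klrd1. They were taken by name, as the cytotoxic granule genes and Lat, and make up 8 of the 22180 genes measured. Each has 1 probe set on the array. Because the choice was made with results of these arrays known, the levels and differences of the 8 genes are given as a description. Their p-values are not printed. Where the text says which of the 8 passed a p-value threshold, nothing is read from it.

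The study measured transcripts on 16 mouse arrays, 4 in each of 4 groups. Progenitors that give rise to macrophages and dendritic cells (MDPs), and the monocyte-committed progenitors downstream of them (cMoPs), were sorted by flow cytometry from bone marrow of mice aged 8 to 12 weeks. Both are lineage-negative, cKit-high, CD115+ and CD11b-, and MDPs are Ly-6C- where cMoPs are Ly-6C+. The first 2 groups are MDPs and cMoPs of control mice (Dnmt1+/+), and the other 2 are the same cells of Dnmt1c/chip mice, called c/chip below. The c/chip mouse carries a null allele of the maintenance DNA methyltransferase Dnmt1 over a hypomorphic one, so the reduction is not limited to 1 cell type. The labels give no strain or sex, and leave unsaid whether each array of a group stands for its own animal. The p-values therefore measure the spread between these samples, which may be technical in part.

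In cytotoxic T cells and natural killer (NK) cells, granzymes are serine proteases stored in secretory granules and delivered into target cells through perforin pores, where they cleave proteins that lead to cell death. Granzyme B cuts after aspartate and activates caspases, and Serpinb9 protects the cell that makes granzyme B by binding the enzyme. Lat links phosphorylated receptors to phospholipase C in T cells, mast cells and platelets. Granzyme B is also made by mouse mast cells, and neutrophil elastase and its relatives are granule proteases of the same family in the myeloid lineage.

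The gene targeted in the mice separated the genotypes. Dnmt1 levels were 9.81 to 9.95 on control and 8.36 to 8.97 on c/chip MDP arrays, and 9.66 to 9.86 on control and 8.70 to 9.004 on c/chip cMoP arrays (log2 RMA level, here and throughout). The sort markers Kit and Csf1r were well above the array medians (3.43 to 3.62) in all groups, with mean levels of 8.78 to 9.26 and 8.56 to 9.32. Ly6c2, a gene for Ly-6C, averaged 10.20 in control MDPs, 11.27 in c/chip MDPs, 12.04 in control cMoPs and 12.12 in c/chip cMoPs. The c/chip MDP arrays therefore lay 1.06 above control MDPs for this marker (limma adjusted p = 4.72e-04). Of 9 genes listed for the sorted progenitors, 1 (Ly6c2) was called higher in c/chip MDPs and 3 (Dnmt1, Flt3 and Irf8) lower. Flt3 was 9.21 to 9.66 on control and 7.13 to 8.13 on c/chip MDP arrays (-1.96). Irf8 was 11.29 to 11.37 and 10.58 to 10.92, and its call was lost when any of 6 of the 16 arrays was left out. Within a group, an array's mean correlation with the others was 0.97 to 0.99.

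Of the c/chip MDP arrays, 3 stood apart in their sex-linked transcripts. Replicates 1, 3 and 4 held both Xist, at 9.51 to 10.65, and Y-linked transcripts, at a mean level of 5.27 to 6.42 over 3 genes. Male cells are known to make little Xist, and female cells have no Y chromosome. On every other array only 1 of these was high. Xist was high, at 10.79 to 11.36, on replicates 1 and 2 of both control groups and on c/chip cMoP replicate 1. On the rest the Y-linked transcripts were high, at 6.70 to 7.345. Sex was thus unevenly spread over the genotypes, and its part in the differences was not tested. The main results that rest on c/chip MDPs are given below also without the 3 c/chip MDP arrays that held both. There replicate 2 stands alone and is assumed to vary like the other groups. With 1 array left in a group, SEs are larger.

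Promoter sequences of 7 of the 8 genes were found in RefSeq tables of build GRCm38.p6 (8 promoters, since Gzmm has 2). Klrd1 was not matched. The 250 bases before the transcription start are shown for Gzmb and Lat, the 2 genes with the widest range of levels, and for Prf1, the granule partner of Gzmb, whose level hardly moved. They are shown because Dnmt1 copies methylation at CG dinucleotides, which are in capitals.
Gzmb, chr14:56262335-56262584, minus strand: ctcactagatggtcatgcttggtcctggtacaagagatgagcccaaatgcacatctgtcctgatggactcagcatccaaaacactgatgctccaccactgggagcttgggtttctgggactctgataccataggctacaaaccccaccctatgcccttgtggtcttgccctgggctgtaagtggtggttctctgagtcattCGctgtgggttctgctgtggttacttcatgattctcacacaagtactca
Lat, chr7:126369569-126369818, minus strand: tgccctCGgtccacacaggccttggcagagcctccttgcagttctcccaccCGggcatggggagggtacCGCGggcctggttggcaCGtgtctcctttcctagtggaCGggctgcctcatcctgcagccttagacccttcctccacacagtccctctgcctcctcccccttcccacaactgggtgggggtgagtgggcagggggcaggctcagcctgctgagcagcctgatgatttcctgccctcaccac
Prf1, chr10:61297586-61297835, plus strand: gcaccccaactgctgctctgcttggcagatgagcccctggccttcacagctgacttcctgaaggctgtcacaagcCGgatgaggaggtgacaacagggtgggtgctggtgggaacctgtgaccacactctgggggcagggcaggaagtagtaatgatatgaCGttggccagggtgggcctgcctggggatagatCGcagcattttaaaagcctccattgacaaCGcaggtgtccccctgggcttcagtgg

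The Gzmb stretch holds 1 CG dinucleotide, at position -49 from the start, whereas the median over 32851 mouse promoters cut to the same length was 6. Only 7.9% of these promoters have fewer. Lat holds 6 and Prf1 4, and the other matched promoters hold 3 to 6. GC content was 50.8% for Gzmb, 65.2% for Lat and 58.8% for Prf1.

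Sequence motifs were searched on both strands by their letters. The AP-1 motif TGACTCA occurs once upstream of Gzmb, on the minus strand of the gene at -58, and in 4.46% of all promoters. The RUNX core TGTGGT occurs at -93 and -34 upstream of Gzmb and, on the minus strand, at -130 upstream of Prf1, -50 upstream of Gzma and -247 upstream of 1 Gzmm promoter, and in 14% of promoters. Neither motif overlaps the other in Gzmb. The letters of both motifs, and of the GATA core AGATAA (9.99% of promoters), are not in the Lat window. The GATA letters occur at -96 and -25, on the minus strand, in the other Gzmm promoter. A match is a description of the letters only. Methylation was not measured here.

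Gzmb, the caspase-activating protease, was high in MDPs of c/chip mice, intermediate in control MDPs and low in cMoPs of both genotypes. On the 4 control MDP arrays its level was 3.96, 5.34, 4.03 and 4.17. On the 4 c/chip MDP arrays it was 7.54, 6.14, 7.23 and 5.98. Every c/chip MDP array lay above every control MDP array, although control replicate 2, at 5.34, was nearest to the lowest c/chip array, at 5.98. In cMoPs the level was 3.03, 3.002, 2.81 and 2.57 on control arrays and 2.63, 2.46, 2.51 and 3.21 on c/chip arrays. All 8 cMoP arrays were below their own array median for this gene, and all 8 MDP arrays were above it.

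The mean Gzmb level was 4.37 ± 0.65 in control and 6.72 ± 0.78 in c/chip MDPs (SD, n = 4 each). The difference was 2.35 on the log2 scale (SE 0.34), or 5.1-fold. It was 1.77 (SE 0.43) without c/chip MDP replicates 1, 3 and 4, and ran from 2.08 to 2.67 when single arrays were left out. In cMoPs the means were 2.85 ± 0.21 in control and 2.70 ± 0.35 in c/chip mice, and the difference of -0.15 (SE 0.34) was smaller than the spread between arrays. Because fewer cells of a type and less RNA per cell cannot be told apart in sorted bulk samples, these values do not say how many cells carried the transcript.

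Between cell types, Gzmb was lower in cMoPs than in MDPs by 2.87-fold in control mice (-1.52, SE 0.34) and by 16.2-fold in c/chip mice (-4.02, SE 0.34). Neither pair of groups overlapped. Since the cMoP means lie below the array medians, where signals are compressed, both folds may understate the difference. The order of the group means was c/chip MDP, control MDP, control cMoP and c/chip cMoP, and only the last pair did not differ beyond their spread. The genotype difference in cMoPs minus that in MDPs was -2.50 (SE 0.48). Without the 3 c/chip MDP arrays, the cell type difference in c/chip mice was -3.44 and the difference of the genotype effects was -1.92.

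**Figure D1:**
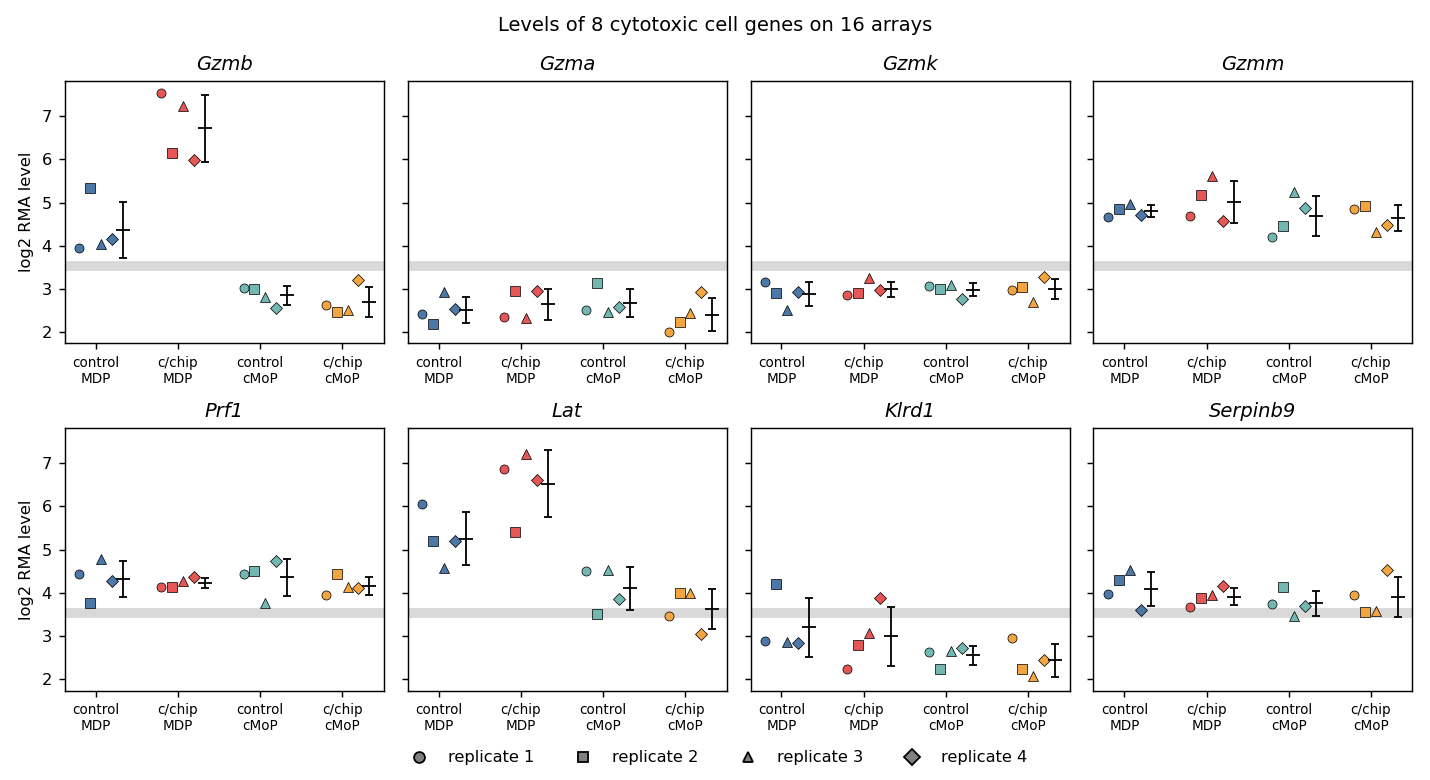
Levels of the 8 genes (log2 RMA, vertical axis) on the 16 arrays, by group. Symbols mark replicates, bars the mean ± SD of 4 arrays and the grey band the range of array medians (3.43 to 3.62). Gzmb and Lat are highest in c/chip MDPs, and no other gene differs between groups by over 0.76 in its means.

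The readings of the 3 other granzymes did not follow those of Gzmb. Gzma, a tryptase that cuts after basic residues, was below the array median on all 16 arrays. Its level was 2.41, 2.20, 2.92 and 2.54 in control MDPs and 2.35, 2.95, 2.32 and 2.95 in c/chip MDPs. In cMoPs it was 2.51, 3.15, 2.46 and 2.57 in control and 2.02, 2.24, 2.45 and 2.92 in c/chip mice. The 4 groups overlapped throughout, with means of 2.52, 2.64, 2.67 and 2.41 in that order.

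Gzmk, a second tryptase and the chromosomal neighbour of Gzma on chromosome 13, was likewise below the median on all 16 arrays. Its level ran from 2.52 to 3.25 over the 8 MDP arrays and from 2.71 to 3.29 over the 8 cMoP arrays. Its group means spanned 0.12, less than its within-group SD of 0.21. For Gzma and Gzmk the arrays thus give no measure of a difference, because their signals lie in the low range of every array.

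Gzmm, a granzyme that cuts after methionine and leucine, was above the median on all 16 arrays, unlike Gzma and Gzmk. It read 4.66, 4.84, 4.97 and 4.72 in control MDPs and 4.69, 5.17, 5.62 and 4.58 in c/chip MDPs. In cMoPs it read 4.19, 4.46, 5.24 and 4.88 in control and 4.86, 4.92, 4.31 and 4.48 in c/chip mice. All groups overlapped. The genotype difference was 0.22 (SE 0.24) in MDPs, which changed to 0.01 without c/chip replicate 3, and -0.05 in cMoPs. A level above the array median need not be above background, so a difference in Gzmm could have gone unseen.

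Prf1, the perforin through which granzymes enter target cells, was also above the median on every array. Its levels were 4.45, 3.77, 4.78 and 4.26 in control MDPs and 4.14, 4.13, 4.26 and 4.38 in c/chip MDPs. The c/chip values all lay inside the control range, and the difference was -0.09 (SE 0.22). In cMoPs it averaged 4.36 ± 0.43 in control and 4.16 ± 0.21 in c/chip mice. Its 4 group means spanned 0.20, against a within-group SD of 0.32. For Prf1 too, the values do not show whether the signal was above background.

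Serpinb9, the inhibitor of granzyme B, did not move with it. Its level was 3.96, 4.29, 4.52 and 3.61 in control MDPs and 3.66, 3.88, 3.96 and 4.15 in c/chip MDPs. The c/chip MDP arrays fell inside the range of the controls, with a difference of -0.18 (SE 0.23). In cMoPs it read 3.74, 4.14, 3.47 and 3.69 in control and 3.95, 3.55, 3.58 and 4.53 in c/chip mice. The gene was above the array median on 14 of 16 arrays, though not far above it. The median is not a detection limit, so these values do not show whether its signal was above background.

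Lat, the adaptor that carries receptor signals to phospholipase C, shared the pattern of Gzmb with more overlap. In control MDPs it read 6.07, 5.21, 4.57 and 5.19. In c/chip MDPs it read 6.88, 5.42, 7.21 and 6.62. The 3 c/chip MDP arrays with both kinds of sex-linked transcript were above all controls, and replicate 2, at 5.42, was inside the control range. In cMoPs the level was 4.501, 3.503, 4.54 and 3.86 on control and 3.46, 3.99, 4.003 and 3.04 on c/chip arrays.

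Mean Lat levels were 5.26 ± 0.62 in control and 6.53 ± 0.78 in c/chip MDPs, and 4.10 ± 0.51 in control and 3.63 ± 0.46 in c/chip cMoPs (SD, n = 4 each). The genotype difference in MDPs was 1.27 (SE 0.37), or 2.42-fold. Without replicates 1, 3 and 4 it was 0.16 (SE 0.51), so the Lat difference rests on those 3 arrays. In cMoPs it was -0.48 (SE 0.37), within the spread. Levels were lower in cMoPs than in MDPs by 2.23-fold in control (-1.16, SE 0.37) and by 7.49-fold in c/chip mice (-2.90, SE 0.37), and neither pair overlapped. Lat was below the array median on 2 c/chip cMoP arrays and 1 control cMoP array, so these folds may be understated. The c/chip fold was -1.79 on the log2 scale without the 3 arrays. The genotype difference in cMoPs minus that in MDPs was -1.75 (SE 0.53) with all arrays and -0.63 (SE 0.60) without the 3. The group means came in the same order as for Gzmb, and here neither the first nor the last pair of neighbours was free of overlap.

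Klrd1 encodes CD94, the chain that pairs with NKG2 proteins on NK cells. It was above the array median on only 2 of 16 arrays. Those were control MDP replicate 2, at 4.21, and c/chip MDP replicate 4, at 3.88. The other MDP arrays read 2.89, 2.86 and 2.83 in control and 2.23, 2.78 and 3.07 in c/chip mice. The 4 control cMoP arrays, at 2.23 to 2.71, were all below the 4 control MDP arrays, with a difference of -0.64 (SE 0.33), which fell to -0.31 without control MDP replicate 2. Both means lie below the array medians. The genotype differences were -0.21 in MDPs and -0.12 in cMoPs, and both pairs overlapped.

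Counted over the 8 genes, 1 (Gzmb) was called higher in c/chip than control MDPs at an adjusted p under 0.05, where 1.26% of all genes were called higher and 0.685% lower. In cMoPs 0 were called in limma's test, where 0.0676% of all genes were called higher and 0.0451% lower (0.113% in all). At an unadjusted p under 0.05 there were also 0. Between cell types, 1 (Gzmb) was called lower in control cMoPs, where 1.71% of all genes were called lower and 2.84% higher. In c/chip cMoPs 2 (Gzmb and Lat) were called lower, where 1.49% of all genes were called lower and 1.8% higher. The test of the difference between the genotype effects called 0, where 0.0135% of all genes were called higher and 0.0451% lower (0.0586% in all). At an unadjusted p under 0.05 there were 2 (Gzmb and Lat). The shares of all genes given here are for adjusted p, so they do not serve for counts at an unadjusted p. The Gzmb call in MDPs was not made in a fit of only the MDP arrays or without c/chip MDP replicates 1, 3 and 4, and its call in controls was lost without control cMoP replicate 4. Leaving out c/chip MDP replicate 2 added Lat to the calls in MDPs and in controls. The Lat call in c/chip mice was lost without the 3 arrays. Since the genes were chosen on these contrasts, nothing is read from the counts.

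Groups did not overlap for 1 of the 8 genes in MDPs (Gzmb, higher), where 4.18% of all genes were higher and 2.82% lower without overlap. In cMoPs there were 0, where 1.94% of all genes were higher and 1.93% lower. For control cMoPs against MDPs there were 3 (Gzmb, Lat and Klrd1, all lower), where 4.76% of all genes were lower and 6.03% higher. For c/chip cMoPs against MDPs there were 2 (Gzmb and Lat, lower), where 5.1% were lower and 4.95% higher. The median difference over the 8 genes was 0.12 in MDPs, -0.13 in cMoPs, -0.22 between control cell types and -0.31 between c/chip cell types. The medians over all genes were 0.03, -0.01, -0.00 and -0.04.

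**Figure D2:**
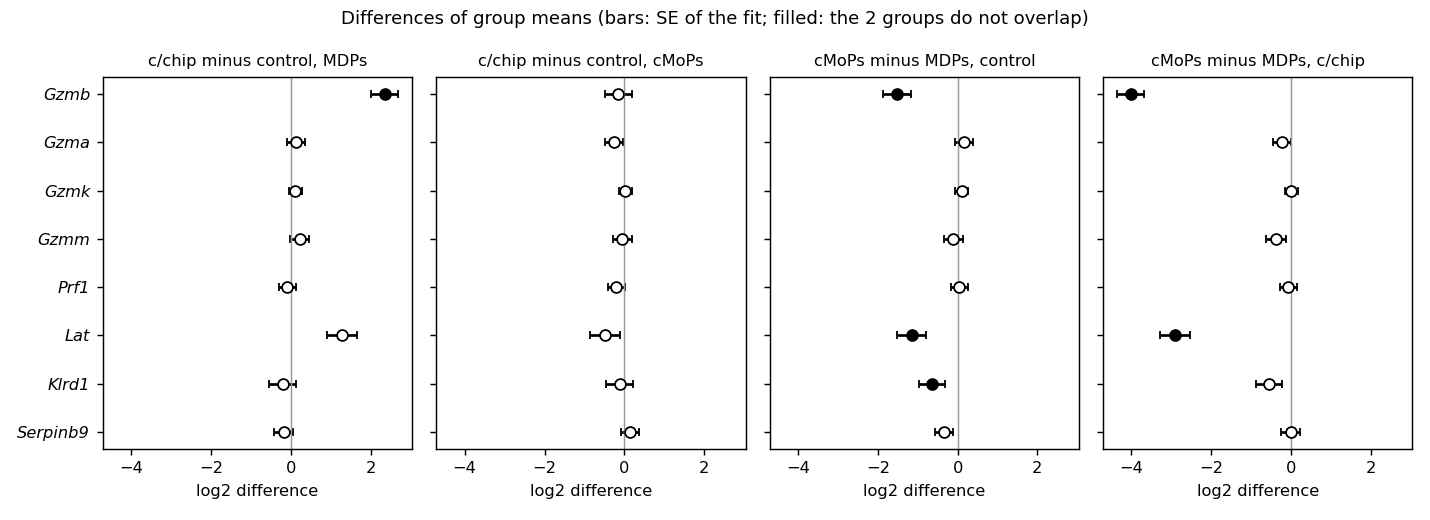
Differences of group means of the 8 genes (log2, horizontal axes) in the 4 comparisons, with the SE of the fit as bars. Filled points mark comparisons in which the 4 arrays of 1 group all lie on 1 side of the 4 of the other. Only Gzmb is filled in MDPs, at 2.35, and none is in cMoPs.

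Gzmb and Lat varied together across the arrays, with Pearson's r = 0.88 and Spearman's rho = 0.81 over 16 arrays. After each group's mean was taken out, r was 0.17, so the likeness is one of group means. All 16 arrays were normalized together and share probe sets, and the groups are of 4 arrays each. Gzmb and Prf1 had r = -0.15, and Gzmb and Serpinb9 r = 0.16.

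Genes with the most similar pattern were found by Pearson's r over the 16 arrays, among 7895 named genes whose highest level reached 6. For Gzmb they were Cpa3 (r = 0.97, rho = 0.89), the mast cell carboxypeptidase; Gata2 (r = 0.95, rho = 0.87), a transcription factor of mast cells, megakaryocytes and stem cells; and Myct1 (r = 0.95, rho = 0.93). With group means taken out, r was 0.74 for Cpa3, 0.50 for Gata2 and 0.72 for Myct1. For Lat they were Pf4 (r = 0.91, rho = 0.86), the platelet chemokine, Slc14a1 (r = 0.90), a urea transporter of red cells, and Ssbp2 (r = 0.90). With group means taken out, r was 0.39 for Pf4, 0.48 for Slc14a1 and 0.75 for Ssbp2.

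Gzmm was most similar to Cfap20 (r = 0.83), Isoc1 (r = 0.81) and Exoc8 (r = 0.79), whose means moved by little between groups, and Serpinb9 to Hspb11 (r = 0.63), BC064078 (r = 0.62) and Khsrp (r = 0.61). With group means taken out, r was 0.83 for Cfap20, 0.79 for Isoc1 and 0.75 for Exoc8. It was 0.66 for Hspb11, 0.57 for BC064078 and 0.75 for Khsrp. The best of 7895 coefficients is high by selection, for Gzmb and Lat as well, and also with group means taken out. For Gzmm and Serpinb9 the values show only how loose the nearest pattern was.

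**Figure D3:**
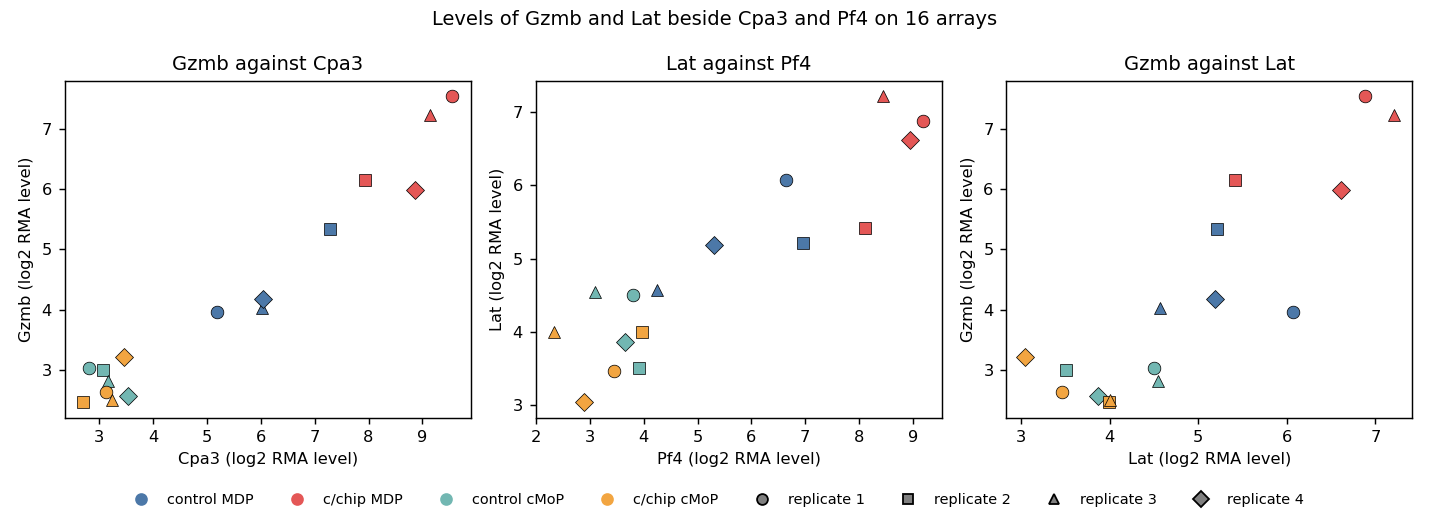
Levels (log2 RMA) of Gzmb against Cpa3, of Lat against Pf4 and of Gzmb against Lat on the 16 arrays, with groups by colour and replicates by symbol. The c/chip MDP arrays lie at the upper right, and control MDP replicate 2 lies nearest to them in the plot of Gzmb against Cpa3 (5.34 and 7.28).

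Markers of other cells that a sort could hold moved to different degrees. Of 13 measured T cell markers and 11 measured NK cell markers, 0 were called by limma in either genotype or cell type comparison. At an unadjusted p under 0.05 in MDPs there were 0 T cell markers and 1 NK cell marker (Klre1, -0.45, SE 0.18). Between c/chip cell types there were 3 T cell markers (Cd4, Trat1 and Thy1) and 2 NK cell markers (Il2rb and Ccl5). Between control cell types there were 2 (Cd28 and Thy1) and 0. The mean level of the T cell list was 3.13 to 3.25 over control and 3.15 to 3.37 over c/chip MDP arrays, below the array medians. That of the NK list was 2.86 to 3.30 and 2.91 to 3.40. On all 4 c/chip MDP arrays, 6 of the 13 T cell markers and 6 of the 11 NK cell markers were below the array median. The defining markers Cd3e and Ncr1 were below it on all 16 arrays, with means of 2.49 and 3.05 in c/chip MDPs. Klrb1c, the NK1.1 antigen, was above it on all 16, at 4.45, 3.496, 4.499 and 4.95 in c/chip and 5.08, 4.07, 4.74 and 4.36 in control MDPs, with overlap. Ccl5, also on the NK list, read 6.57, 5.44, 4.43 and 7.08 in c/chip MDPs. It read 5.71, 4.23, 6.855 and 3.81 in control MDPs, with overlap, and 4.045 to 4.61 in c/chip cMoPs. The part of T and NK cells in the Gzmb difference was not tested.

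Mast cell and basophil markers were higher in c/chip MDPs. Of 13 measured, 5 were called higher and 0 lower. They were Cpa3 (2.74, SE 0.37, limma adjusted p = 7.55e-04), Gata2 (2.44), Hdc, which makes histamine (2.05), Ms4a2, the beta chain of the IgE receptor (1.63), and Mcpt8, a basophil protease (1.07). The Mcpt8 and Ms4a2 calls were lost when any of 9 and 4 of the 16 arrays was left out. The mean level of the list without Kit was 3.91 to 4.33 over control and 4.61 to 5.52 over c/chip MDP arrays, and 3.65 to 3.88 over all cMoP arrays. On c/chip MDP replicates 1 to 4 it was 5.52, 4.61, 5.23 and 4.87, where Gzmb was 7.54, 6.14, 7.23 and 5.98. Among controls the highest, 4.33, was on replicate 2, which also had the highest Gzmb. Without c/chip MDP replicates 1, 3 and 4, 1 of the 13 (Hdc, 1.69) was called, while the difference was 2.49 for Gata2, 1.80 for Cpa3, 0.79 for Ms4a2 and 0.61 for Mcpt8. Between control cell types, Hdc was opposite to Gzmb, with cMoPs above MDPs by 2.52, while Cpa3 (-3.00) and Gata2 were lower in cMoPs. The part of mast cells and basophils in the Gzmb difference was not tested.

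Megakaryocyte and platelet markers were higher too. Of 13 measured, 6 were called higher in c/chip MDPs and 0 lower, led by Pf4 (2.89, SE 0.48, limma adjusted p = 0.00484), Selp (2.65), Gp9 (2.49) and Gp5 (2.48), with Vwf (1.01) and Itga2b (0.82) below them. The Itga2b, Vwf and Gp9 calls were lost when any of 10, 8 and 2 of the 16 arrays was left out. The mean level of the list was 3.72 to 4.38 over control and 4.63 to 5.56 over c/chip MDP arrays. It was 5.41, 4.63, 5.30 and 5.56 on c/chip replicates 1 to 4, where Lat was 6.88, 5.42, 7.21 and 6.62. Among control MDPs the list was highest on replicate 2 (4.38) and Lat on replicate 1 (6.07). Among c/chip MDPs replicate 2 was lowest for both, while the list was highest on replicate 4 and Lat on replicate 3. Without replicates 1, 3 and 4, 1 of the 13 (Gp5, 1.49) was called, while the difference was 2.32 for Pf4, 1.59 for Selp and 1.10 for Gp9. Their part in the Lat difference was not tested. Neutrophil progenitor markers were called higher for 7 of 15, with a mean level of 5.94 to 7.22 over control and 7.47 to 9.28 over c/chip MDP arrays. Those called were Elane, Prtn3, Ms4a3, Cebpe, Gfi1, Ltf and Lcn2, and without replicates 1, 3 and 4 they were Elane, Ms4a3 and Cebpe. The Lcn2, Ltf and Gfi1 calls were lost when any of 13, 9 and 3 of the 16 arrays was left out. Plasmacytoid dendritic cell markers were called lower for 4 of 10 (Siglech, Cox6a2, Dntt and Il7r). Without the 3 arrays, 2 were called lower (Dntt and Il7r) and 1 higher (Ly6d, 1.57). In cMoPs none of these 4 lists held a gene called between genotypes in limma's fit, with 0 to 2 genes each at an unadjusted p under 0.05.

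Genes that work with the 8 were counted in 6 lists, of granule proteins, intracellular serpins, exocytosis factors, Lat signalling partners, NK receptors with their adaptors, and transcription factors of cytotoxic cells. In all, 106 of 122 listed genes were measured. In c/chip against control MDPs, 2 of 106 were called higher and 0 lower (1.89%), beside 1.95% of all genes. At an unadjusted p under 0.05 in the same limma fit there were 22 in MDPs. In cMoPs 0 were called by limma, with 6 at an unadjusted p under 0.05. The share of all genes at an unadjusted p under 0.05 is not given here. Nothing is therefore read from counts at that threshold, for these lists or any other.

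The granule list held both calls in MDPs. Nkg7, a membrane protein of cytotoxic granules, read 8.41, 8.66, 7.94 and 7.96 in control MDPs and 10.41, 10.18, 10.04 and 10.32 in c/chip MDPs, with no overlap. The difference was 1.997 (SE 0.16, limma adjusted p = 1.26e-05), and it was 1.94 (adjusted p = 0.00366) without replicates 1, 3 and 4. In cMoPs, Nkg7 was already at 10.39 to 10.65 in control and 10.70 to 10.91 in c/chip mice. Its direction between cell types was thus opposite to that of Gzmb, with control cMoPs above control MDPs by 2.33 (adjusted p = 1.63e-07). The genotype effect in cMoPs minus that in MDPs was -1.75 (limma adjusted p = 0.00416), and -1.69 (adjusted p = 0.056) without the 3 arrays, where the call was lost.

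The other call was Calr, a chaperone that binds perforin in granules (0.51, SE 0.12, limma adjusted p = 0.0452), which was lost when any of 15 of the 16 arrays was left out. Cathepsin C (Ctsc), which trims progranzymes to their active form, was 0.77 higher in c/chip MDPs (adjusted p = 0.124) and was not called. It was called higher in cMoPs than in MDPs, by 1.71 in control (adjusted p = 3.09e-04) and by 1.04 in c/chip mice (adjusted p = 0.0243). Cathepsin H (Ctsh), which also processes granzyme B, was higher in cMoPs by 1.52 and 1.91, and the lysosomal proteins Lamp2 and Lamp1 by 0.85 and 0.54 in controls, in the same fit. The Lamp1 call was lost when any of 9 of the 16 arrays was left out. Serglycin (Srgn), the proteoglycan that holds granzymes in granules, differed by 0.18 between genotypes in MDPs (adjusted p = 0.558).

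The inhibitors and the release machinery showed little. Of 12 measured intracellular serpins, 0 were called in any comparison in limma's fit, and at an unadjusted p under 0.05 there were 0 in MDPs and 2 in cMoPs between genotypes. Serpinb6b and Serpinb9b, the neighbours of Serpinb9 on the chromosome, differed by -0.41 (SE 0.30) and -0.13 (SE 0.17) in MDPs. Of 16 exocytosis genes, 0 were called between genotypes, with 4 in MDPs and 0 in cMoPs at an unadjusted p under 0.05. Unc13d, which primes granules for fusion, differed by 0.81 in MDPs (SE 0.22, limma adjusted p = 0.0724). Lyst, which governs granule size, was higher in cMoPs than in MDPs by 1.79 in control (adjusted p = 1.04e-04) and by 1.54 in c/chip mice, and Rab27a by 0.78 in c/chip mice (adjusted p = 0.0269).

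Of 23 measured partners of Lat, 0 were called between genotypes in MDPs or in cMoPs in limma's fit, with 7 and 1 at an unadjusted p under 0.05. Lat itself was not called in either. Between control cell types, Fyn, a Src kinase, was lower in cMoPs by 1.47 (-1.47, adjusted p = 1.10e-04), and so were Plcg1, the phospholipase that Lat recruits (-1.40), and Inpp5d (-0.52). Lcp2, the adaptor SLP-76 that binds the Lat complex, was higher by 1.23 (adjusted p = 1.85e-04), and Fcer1g, the Fc receptor gamma chain, by 0.93. In c/chip mice Fyn was lower by 1.01 (-1.01) and Lcp2 higher by 0.98. Zap70, the kinase upstream of Lat in T cells, had means of 2.75 to 2.88 in the 4 groups, below the array medians. Syk, its relative in myeloid cells, had means of 6.64 to 6.95.

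NK receptors and cytotoxic transcription factors were not called between genotypes either. For the 26 receptors and adaptors, 0 were called in limma's fit, with 4 in MDPs and 2 in cMoPs at an unadjusted p under 0.05. Klrc1 and Klrc2, which encode the NKG2 partners of CD94, had group means of 2.68 to 2.96 and 2.36 to 3.05. Klre1 and Klrk1 flank Klrd1 on chromosome 6 and differed in MDPs by -0.45 (SE 0.18) and 0.61 (SE 0.43), with neither called. In controls, Cd27 (-1.65) and Cd244a (-1.58) were lower and Hcst (0.83) higher in cMoPs than in MDPs. For the 13 transcription factors 0 were called between genotypes, with 1 in each cell type at an unadjusted p under 0.05. Tbx21 and Eomes, which drive Gzmb and Prf1 in lymphocytes, had group means of 3.20 to 3.31 and 2.11 to 2.34. Ikzf2 was lower in cMoPs by 1.96 in controls (-1.96, limma adjusted p = 0.00138), and Runx1 (-0.63) and Stat4 (-0.71) were lower as well, with calls lost when any of 3 and 8 of the 16 arrays was left out. In c/chip mice, Ikzf2 (-2.17) and Tox (-0.95) were lower, and the Tox call was lost when any of 12 arrays was left out.

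Over the 6 lists, the comparison of cMoPs with MDPs called 9 genes higher and 8 lower in controls (16%, beside 4.56% of all genes) and 9 higher and 4 lower in c/chip mice (12.3%, beside 3.29%). Without c/chip MDP replicates 1, 3 and 4, 7 were called in c/chip mice, of which 5 were among these 13. Without c/chip MDP replicates 1, 3 and 4, the genes called in MDPs were Nkg7, Stx11 (1.69), Klrb1f (1.30), Slamf7 (0.94) and, lower, Cd244a (-1.89). These genes were named after their values were seen, and apart from Nkg7 they rest on 1 c/chip array.

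**Figure D4:**
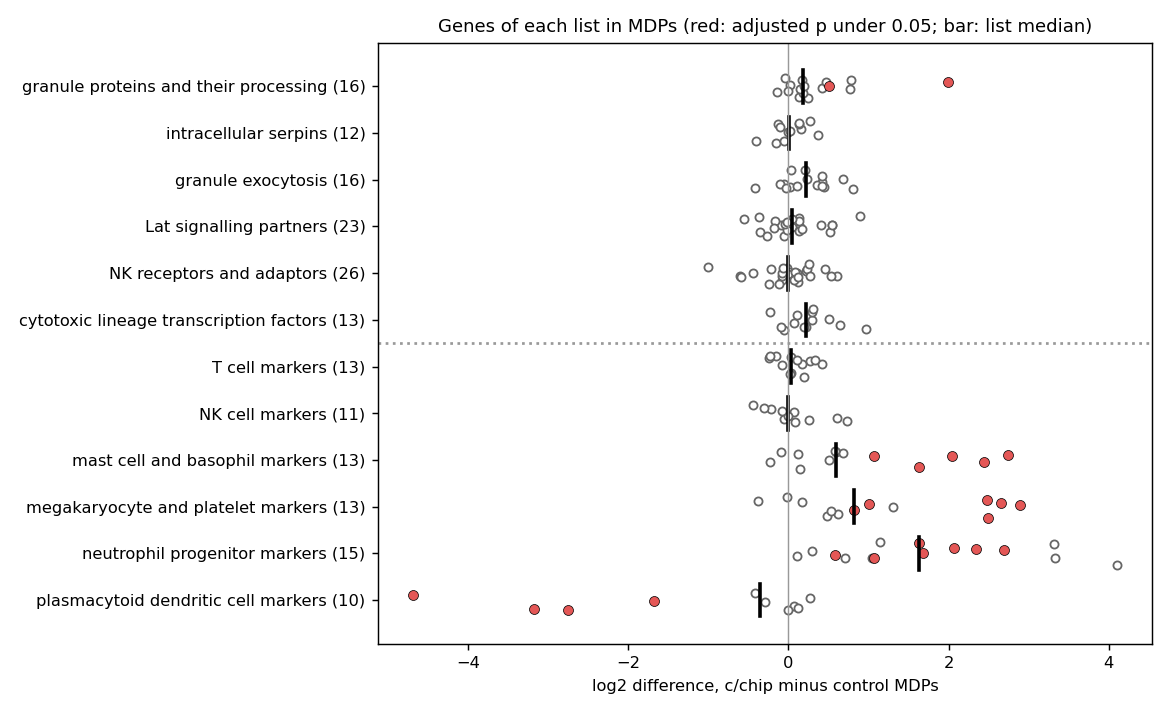
Differences between c/chip and control MDPs (log2, horizontal axis) for each measured gene of 12 lists, with the number measured in brackets. Red marks an adjusted p under 0.05 and the bar the list median. The 6 lists above the dotted line hold 2 red points, Nkg7 (1.997) and Calr (0.51), the T and NK cell lists below it hold 0, and the other 4 marker lists hold 4 to 7 each.

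The place of Gzmb in the genome sets its difference against that of its relatives. In the RefSeq gene order of GRCm38.p6, Gzmb ends a run of granzyme, mast cell protease and cathepsin G genes on chromosome 14, with 14 others, of which 13 were measured. Its nearest neighbour Gzmc differed by 0.02 (SE 0.20) between genotypes in MDPs, and Gzmf, Gzmn, Gzmg and Gzmd by -0.05 to 0.42, none of them called. Group means of these 5 genes were 1.66 to 2.92, below the array medians, so that only higher levels could have been seen. Cathepsin G (Ctsg), a neutrophil protease with means of 11.5 to 12.0, differed by 0.29 (SE 0.12, limma adjusted p = 0.26). The mast cell proteases Cma1 (0.58), Cma2 (0.16), Mcpt4 (0.15), Mcpt2 (-0.02), Mcpt9 (-0.05) and Mcpt1 (-0.08) were not called. Apart from Cma1, these proteases were also below the array median on every array. Cma1 was above it only on c/chip MDP replicates 3 and 4, at 4.10 and 4.01.

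Mcpt8 was the 1 other gene of the run called in MDPs. It read 8.02, 8.18, 8.74 and 8.47 in control and 9.65, 8.96, 9.90 and 9.17 in c/chip mice, without overlap (1.07, SE 0.25, limma adjusted p = 0.0381). The call was lost when any of 9 of the 16 arrays was left out, and the difference was 0.61 (adjusted p = 0.602) without replicates 1, 3 and 4. At an unadjusted p under 0.05 in limma's fit there were 4 of the 13 in MDPs (Gzmg, Ctsg, Cma1 and Mcpt8). In cMoPs none of the 13 was called between genotypes in limma's fit, and 0 had an unadjusted p under 0.05. Between cell types, Ctsg was higher in control cMoPs (0.46, adjusted p = 0.0343) and Mcpt8 was lower in c/chip cMoPs (-1.27, adjusted p = 0.00782).

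Gzmm lies on chromosome 10 in a stretch that also holds the genes of the neutrophil proteases Prtn3 and Elane. Of 11 measured genes around it, 2 were called higher in c/chip MDPs. Elane, neutrophil elastase, was higher by 1.68 (SE 0.14, limma adjusted p = 1.71e-05), and by 1.60 (adjusted p = 0.00706) without replicates 1, 3 and 4. Prtn3, proteinase 3, was higher by 0.58 (SE 0.11, adjusted p = 0.0119), and by 0.55 (adjusted p = 0.208) without them. The genes next to Gzmm, Cdc34 and Bsg, differed by 0.34 and 0.36 and were not called. Fgf22, Rnf126, Fstl3, Palm, Misp, Ptbp1 and Med16 differed by -0.04 to 0.71 and were not called either. Between control cell types, Elane (2.37), Prtn3 (1.08) and Cdc34 (0.66) were higher in cMoPs, where Gzmm differed by -0.11 (SE 0.24).

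**Figure D5:**
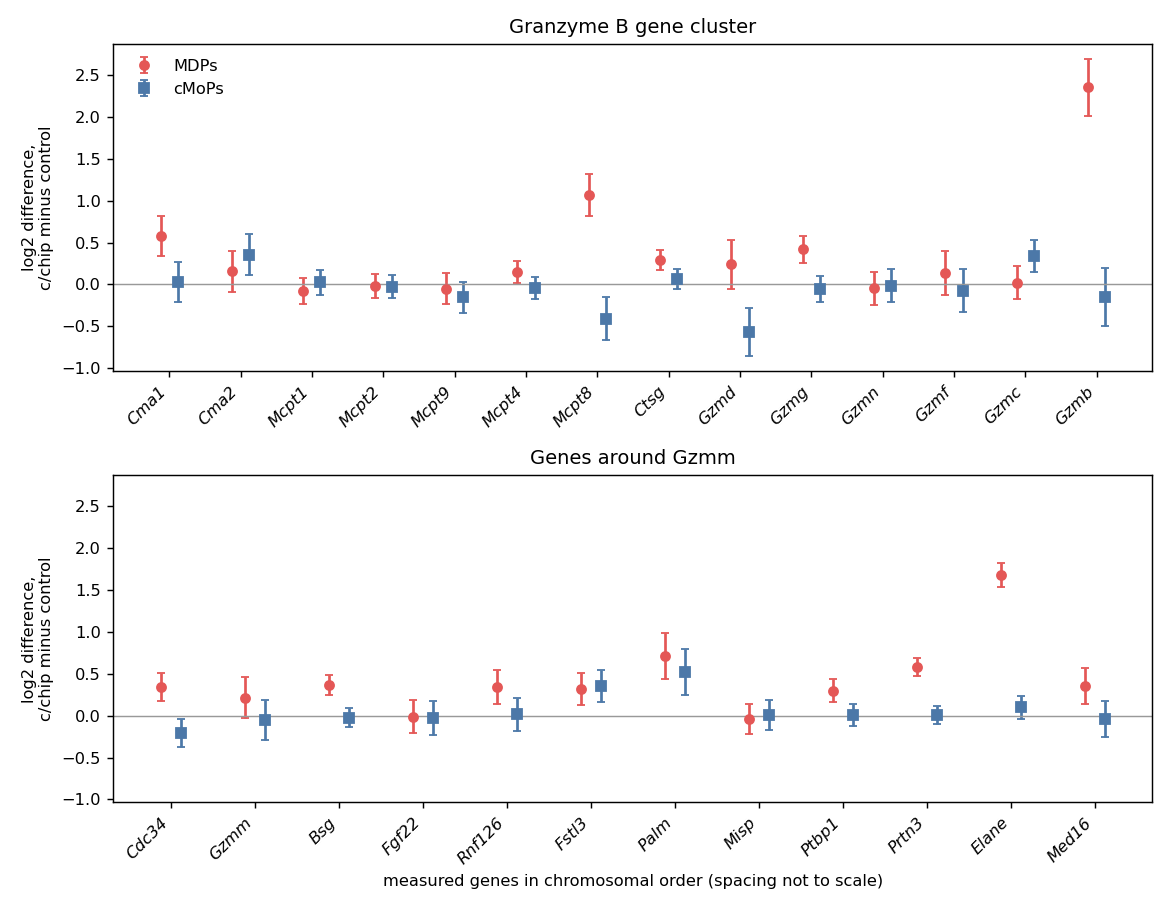
Differences between c/chip and control mice (log2, vertical axes, bars SE) in MDPs and cMoPs, for the measured genes of the granzyme B run on chromosome 14 and around Gzmm on chromosome 10, in chromosomal order with spacing not to scale. Gzmb (2.35) and Mcpt8 (1.07) stand out in MDPs in the first, and Elane (1.68) in the second.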

How the data were processed

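Transcripts of sorted MDPs and cMoPs from control and c/chip mice were measured on 16 Affymetrix arrays from 300 ng of total RNA each. The deposited values are log2 levels, 1 per probe set and array, made by the authors with affy and RMA, per the submitters' processing notes. RMA is a method that subtracts background, equalizes the distributions of the arrays by quantiles and combines the probes of a set. The notes also name limma, and no version is given in the sources used here. A second deposited table has 16 value columns that match no sample label and was not used. Titles of the control cMoP arrays carry the names of both genotypes, so groups were taken from the source names. The array named in the design text differs from the platform whose annotation gave the gene names.

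Of 41345 probe sets, 23521 had 1 symbol in the platform annotation, 1820 several and 16004 none. For genes with over 1 probe set the one with the highest mean was taken, which left 22180 genes without a filter on low values. One model with 4 group means was fitted in R 4.3.3 with limma 3.58.1 (lmFit, eBayes), with p-values adjusted by the Benjamini-Hochberg method over all genes and a threshold of 0.05. SEs are those of this fit and SDs are over 4 arrays. The number of arrays limits the precision. The fit was tested on simulated data.

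The 8 genes and the 15 other lists were chosen with earlier results of these data known. All 8 genes are named. Of each list the genes called between genotypes, at most 6 by size, and at most 4 called between cell types are named, with all measured genes of the 2 chromosomal runs. A few partners that were not called are named for their known role, after their values were seen. Alternatives were another choice of probe set, a filter on low values, quantile normalization, a trended and robust fit, fits restricted to 2 groups, a replicate block, and leaving out arrays.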

Additional observations from a re-analysis of the deposited data

Results flagged for a closer look

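Within the 8 genes, 3 of 32 groups of 4 arrays held an array far from the other 3, by a gap to the nearest array, divided by the group's range, above Dixon's 95% critical value. Chance alone gives such a gap in about 5% of groups. Control MDP replicate 2 stood out for Gzmb, at 5.34 with a ratio of 0.847, and for Klrd1, at 4.21 with a ratio of 0.959. Control cMoP replicate 2 stood out for Gzma, at 3.15 with a ratio of 0.836, in the low range of the arrays.

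The genotype effect in cMoPs minus that in MDPs passed limma's test at an adjusted p under 0.05 for 6 named genes that are not among the 8. It was -1.75 for Nkg7, -1.58 for Elane, -2.39 for Hdc, -2.64 for Gp5, -1.97 for Ms4a3 and 4.62 for Dntt. Without c/chip MDP replicates 1, 3 and 4, Dntt was still called (4.86), and the other 5 kept their direction at -1.69, -1.50, -2.03, -1.65 and -2.04 in the same order but were not called (adjusted p 0.0516 to 0.0692). For Lat every c/chip MDP array lay above the control mean and every c/chip cMoP array below it, with a difference of the effects of -1.75, which limma's test over all genes did not call.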

How the results depend on the processing

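The count of genes called in MDPs (432) was 64 in a fit of only the MDP arrays, of which 63 were among the 432, and 165 without c/chip MDP replicates 1, 3 and 4, of which 66 were. In c/chip mice the count between cell types (730) was 482 with only the 2 groups and 372 without those 3 arrays, of which 433 and 201 were among the 730. For the difference of the genotype effects (13) it was 25 without them, of which 1 was among the 13. Of the 106 pathway genes, the 2 called in MDPs became 5 with quantile normalization, 1 with only the 2 groups and 5 without the 3 arrays. The 13 called between c/chip cell types became 7, and the 1 of the difference of effects 0, without the 3 arrays. The cause of these changes was not tested. The fits of only 2 groups and those that leave arrays out also hold fewer arrays. No called result changed direction under these alternatives. For Klrd1 in MDPs, which was not called, the difference of -0.21 was 0.13 without control MDP replicate 2. Other small differences that were not called also changed sign when single arrays were left out. Among them were those of Gzmk and Prf1 in MDPs and of Gzmm and Serpinb9 in cMoPs. Median differences over the 8 genes have no value under the filter on low values, which keeps 5 of them (Gzma, Gzmk and Klrd1 are dropped).

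When single arrays were left out, genes called ran from 214 to 505 in MDPs, 15 to 28 in cMoPs, 683 to 1114 between control and 437 to 761 between c/chip cell types, and 5 to 33 for the difference of effects. In MDPs the count was lowest without control replicate 3 (214) or 4 (255), or c/chip replicate 1 (270) or 4 (262). In cMoPs it was 15 without control replicate 1 or 3 and 16 without c/chip replicate 4, and between c/chip cell types it was 437 without c/chip cMoP replicate 3. For the difference of effects it was 33 and 26 without c/chip MDP replicates 3 and 4, 5 and 7 without control cMoP replicates 1 and 4, and 8, 5 and 5 without c/chip cMoP replicates 1, 2 and 4. Pathway genes called ran from 1 to 3 in MDPs, 14 to 19 between control and 7 to 14 between c/chip cell types, and stayed at 0 in cMoPs and at 1 for the difference of effects. Median differences over the 8 genes ran from 0.02 to 0.19 in MDPs, -0.15 to -0.04 in cMoPs, -0.32 to -0.12 between control and -0.41 to -0.20 between c/chip cell types.

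Replicate numbers do not pair the samples by their labels, and deviations of same-numbered arrays correlated at -0.04 to 0.19. Arrays correlated best with their own number in 3 of 8, 6 of 8, 3 of 8 and 5 of 8 cases over the 4 comparisons. With the replicate block, 1 pathway gene was called in MDPs in place of 2.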
